A study of Rattus norvegicus with 26 samples.

Results

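The first 2 days of smooth muscle cell (SMC) differentiation were examined in clone 3c3, a line of rat multipotent adult progenitor cells (rMAPCs), by comparing its d2 arrays with its d0 arrays. These are 6 of the 26 arrays of the series, 3 from each day, and they were chosen by the clone and time point in their labels. A replicate number stands for 1 slide that holds d0, d2, d4 and d6 of that replicate, so each d2 array was compared with the d0 array of its own slide. The study followed lines 3c3 and Cl19 over 6 days with 3 arrays a day, beside 2 arrays of primary SMC RNA.

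By their labels, all 6 cultures were *Oct4*-expressing rMAPCs of Fischer rat bone marrow, from female donors of age E18. The d0 cells were undifferentiated. The d2 cells had been plated in serum-free basal rMAPC medium with TGFβ1 and PDGF-BB. Both days are of 1 clone, and no d2 culture without the factors was compared, so the factors, the change of medium and plating, and time cannot be told apart. On each slide, d0 lay at position 1 and d2 at position 2, so day and position cannot be told apart either.

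TGFβ1 binds a pair of serine/threonine kinase receptors, which phosphorylate SMAD2 and SMAD3. With SMAD4 these enter the nucleus and switch genes on or off, among them inhibitors of the same pathway. In SMCs, serum response factor (SRF) and its cofactors act on CArG boxes before contractile genes, and the BAF complex opens chromatin there. Nodal, a relative of TGFβ1, uses the same SMADs and directs mesendoderm formation in the early embryo.

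Levels are given as log2 of the intensity after quantile normalization, 1 unit being a 2-fold difference, and are compared within a probe only. The number of arrays limits the precision. Between 49.5% and 54.8% of gene features were well above background on the 6 arrays, and no feature was saturated. The slide of replicate 3 had a higher background, with a median negative control signal of 10.6 on d0 and 9.13 on d2 against 2.88 to 3.26 on the other 4 arrays, so main counts are also given without it. The median SD of a probe over 3 arrays was 0.21 on d0 and 0.18 on d2, and 0.16 for the 3 differences within slides.

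The labelled cells were checked against markers. *Pou5f1* (Oct4) and the endoderm factors *Gata4*, *Gata6*, *Sox17* and *Foxa2* were well above background on every d0 and d2 array. *Sox2* was on none of the 6 arrays, and *Nanog* had no probe under that symbol. Of the defining markers of other cells, *Ptprc* (blood), *Kdr* (endothelium), *Thy1* and *Pdgfrb* (stroma), *Myod1* (skeletal muscle), *Nkx2-5* (heart) and *Pax6* (nervous system) were well above background on none of the arrays. Other markers of these lineages were measured. Among them *Pecam1* (endothelium) and *Tubb3* (nervous system) fell and *Csf1r* (blood) rose, with values given below. RNA was taken from whole cultures, so more cells with a transcript and more of it per cell cannot be told apart.

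A large share of the measured transcripts differed between d0 and d2, with more of the large changes upward. Of 20982 probes tested, 7356 (35.1%) passed the threshold of 0.05 for the adjusted p (limma), 3414 (16.3%) higher and 3942 (18.8%) lower on d2. Among them 2555 (12.2%) changed at least 2-fold, 1612 higher (7.68%) and 943 lower (4.49%), so 63.1% of them were higher. The filter let in 1306 probes through d2 and not all d0 arrays, and 545 the other way, which favours rises. Among probes well above background on all 6 arrays, 1097 were higher and 755 lower at 2-fold (59.2% higher). With 1 probe a gene, 2148 of 10912 genes were higher (19.7%) and 2051 lower (18.8%), and the median change of all genes was -0.035. Without replicate 3, 3381 probes passed, of which 3191 were called the same way with all slides. In the log2 table without normalization between arrays, the median of all probes moved from -0.07 to 0.17. There 77.4% of the probes called were higher on d2 against 46.4% here. At 2-fold the share higher was 79.1% in that table and 58.4% with 75th percentile scaling, against 63.1% here. The balance of rises and falls, small and large, therefore depends on the scaling, though at 2-fold rises outnumbered falls in each of these.

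**Figure D1:**
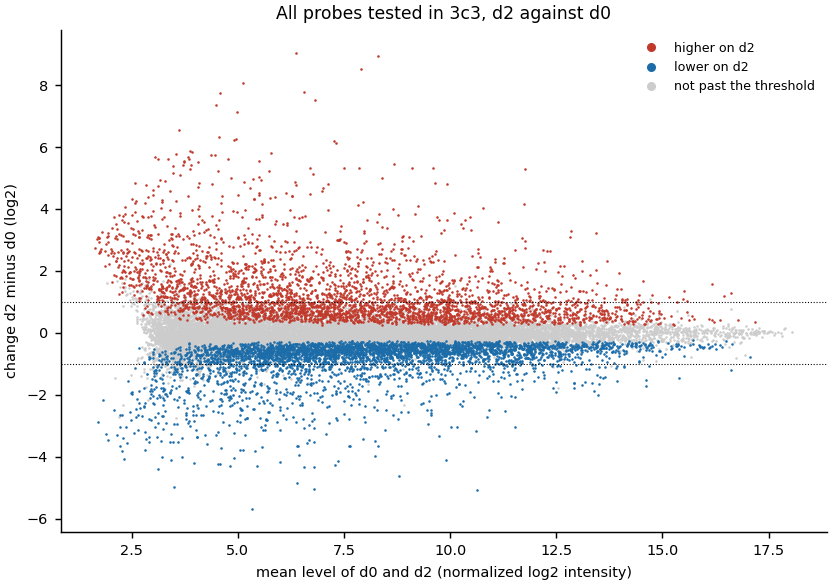
Change from d0 to d2 (log2, vertical axis) against the mean level of both days (normalized log2 intensity, horizontal axis) for the 20982 probes tested in 3c3. Red and blue points are probes past the threshold, dotted lines mark a 2-fold change, and past these lines red points (1612) outnumber blue points (943).

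The TGFβ family ligands *Tgfb1*, *Tgfb3*, *Inhba*, *Bmp2* and *Bmp4* rose by d2, receptors were called in both directions, and the pathway inhibitors *Smad7*, *Skil* and *Ski* rose. *Tgfb1*, the gene of the ligand added to the medium, gave 3.58, 4.09 and 4.28 on the d0 arrays and 8.91, 8.38 and 8.95 on the d2 arrays. The change was 4.77 (SE 0.25, adjusted p = 8.2e-06), a 27.2-fold rise, and the days lay far apart on every slide. *Tgfb3* was well above background only on d2 and rose at least 4.95-fold (adjusted p = 1e-05). *Inhba*, the activin A subunit, likewise rose at least 1.98-fold (adjusted p = 0.0011). *Bmp2* and *Bmp4*, ligands of the bone morphogenetic branch, rose by 3.03 and 1.16. *Ltbp1*, which anchors latent TGFβ in the matrix, rose by 1.66 (SE 0.14, adjusted p = 7.5e-05).

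Among the receptors, *Acvr1* and *Acvr1b* rose by 1.41 and 1.07, whereas the TGFβ receptor *Tgfbr2* and coreceptor *Tgfbr3* fell by 0.56 and 0.94. *Tgfbr1* lay at 5.14 to 5.43 on d0 and 4.51 to 5.10 on d2 and did not pass (adjusted p = 0.3). *Smad1* rose by 0.85 and *Smad2* fell by 0.37 (adjusted p = 0.0086), while *Smad4* changed by -0.10 (adjusted p = 0.59). The arrays of *Smad1* and *Smad2* overlapped between the days, since slide 2 was higher on both days, and moved one way on each slide. In all, 10 of 25 measured ligands, receptors and SMADs rose and 3 fell (40% and 12%, against 19.7% and 18.8% of all genes), with a median change of 0.19. The counts were 13 and 1 in the unnormalized table and 10 and 0 without replicate 2. *Tgfb3* and *Inhba* were tested through their d2 arrays alone, which favours rises in this list. Without replicate 3, *Tgfbr2* and *Smad2* no longer passed (adjusted p = 0.068 and 0.16). For the second factor of the medium, the receptor *Pdgfra* fell by 0.82 (SE 0.15, adjusted p = 0.0041), the only one of 3 measured PDGF genes called.

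Of 26 measured SMAD target genes, 11 rose and 3 fell (42.3% and 11.5%, against 19.7% and 18.8% of all genes), with a median of 0.60. The lower count was 1 in the unnormalized table and without replicate 2 or 3. *Smad7*, the inhibitory SMAD, went from 8.12, 8.55 and 8.47 to 9.66, 9.32 and 9.42, with no overlap (change 1.09, SE 0.23, adjusted p = 0.0068). *Skil* and *Ski*, corepressors of SMADs, rose by 0.60 and 0.81. *Ccn2* and *Ccn1*, matricellular proteins, rose by 1.1 and 1.38, and *Fst*, the activin-binding follistatin, rose by 1.58. *Nuak2*, a kinase, rose by 2.81 and *Bhlhe40*, a transcriptional repressor, by 2.15. The CDK inhibitor *Cdkn2b* stood at 3.4, 2.67 and 3.18 on d0 and at 6.01, 4.78 and 5.32 on d2, a change of 2.29 (SE 0.20, adjusted p = 9e-05). *Id1*, *Id3* and *Id4*, inhibitors of differentiation that bone morphogenetic signals are known to raise, fell by 0.75, 0.51 and 1.54. Without replicate 3 the calls of *Id1* and *Id3* were lost (adjusted p = 0.16 and 0.24).

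Of 17 measured contractile genes of SMCs, 11 rose and 1 fell (64.7% and 5.88%, against 19.7% and 18.8% of all genes), with a median of 0.98, and the groups of arrays did not overlap for 13 of them, against 25.2% of all genes higher and 27.7% lower without overlap. *Tagln*, the actin-binding protein SM22α, had d0 values of 8.95, 8.61 and 8.93 and d2 values of 11.74, 12.39 and 12.30. It rose 9.95-fold (change 3.31, SE 0.24, adjusted p = 3.5e-05), by 2.79, 3.78 and 3.37 on the slides of replicates 1 to 3. *Cnn1*, calponin, went from 8.37, 8.37 and 8.61 to 9.82, 10.15 and 10.40 (change 1.67, SE 0.17, adjusted p = 0.00021), again with every d2 array above every d0 array. *Smtn*, smoothelin, rose by 0.98 (SE 0.15) and *Cnn2* by 0.54 (SE 0.12).

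*Tpm2*, a tropomyosin, stood at 9.33, 8.0 and 8.29 on d0 and 10.71, 10.81 and 11.16 on d2 (change 2.35, SE 0.33, adjusted p = 0.0011). Its d0 value on slide 1 was more than 1 unit above the other d0 arrays, and its rise there was 1.38 against 2.80 and 2.86. *Pdlim7*, an actin-associated protein, rose by 1.45 and *Tpm1*, another tropomyosin, by 1.37. *Lmod1*, leiomodin, was well above background on no d0 array and every d2 array and rose at least 1.58-fold. The probe of *Lmod1* was thus tested through d2 alone, which favours a rise. The exception was *Actg2*, the enteric smooth muscle actin, with 5.20, 5.20 and 5.10 on d0 against 4.41, 4.59 and 4.24 on d2 (change -0.75, adjusted p = 0.0025, and 0.061 without replicate 3). Of 22 listed contractile genes 17 were measured. *Myh11* had no probe under that symbol. *Mylk*, *Itga8*, *Kcnmb1* and *Synpo2* were not well above background on all arrays of either day and were not tested. The master cofactor *Myocd* was well above background on 1 d0 array and no d2 array and was not tested.

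Among the factors that act on contractile genes, *Srf* was at 13.44, 13.14 and 13.23 on d0 and 13.61, 13.48 and 13.51 on d2 (change 0.26, SE 0.10, adjusted p = 0.072), while 2 other probes named *Srf* gave -0.59 and -0.51, so its direction is not settled. *Mrtfa*, an SRF cofactor, changed by 0.29 (adjusted p = 0.16). Of 10 measured factors, 1 rose and 4 fell (10% and 40%, against 19.7% and 18.8% of all genes), but 2 and 2 in the unnormalized table and 1 and 1 without replicate 3. *Fhl2* rose by 0.86, and *Klf4* and *Klf5*, factors of progenitor and proliferating cells, fell by 1.01 and 1.06. In the wider actin cytoskeleton and focal adhesion list, 11 of 29 rose and 2 fell (37.9% and 6.90%, against 19.7% and 18.8% of all genes). The counts were 7 and 1 without replicate 3 and 17 and 0 in the unnormalized table. *Tns1* (3.66), *Tgfb1i1* (2.30) and *Itga5*, the fibronectin receptor subunit (1.91), rose most.

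*Smarcd3* (Baf60c), the BAF subunit that the study followed, was the BAF gene with the largest change. Its probe lies at chr4:5959631-5959690 of rn4. The d0 arrays gave 6.67, 6.32 and 6.49, and the d2 arrays 10.46, 9.68 and 10.04. The rise of 3.57 (SE 0.17, adjusted p = 5.5e-06) is 11.8-fold, and on the slides it was 3.78, 3.36 and 3.56. Of 21 measured BAF subunits, 9.52% rose and 14.3% fell, against 19.7% and 18.8% of all genes. Beside *Smarcd3* 1 other rose, the ATPase *Smarca2* (0.54), and 3 fell slightly, *Brd7* by 0.39, *Smarca4* by 0.32 and *Smarcd2* by 0.29. These 4 small changes lost their calls without replicate 3 (adjusted p = 0.1, 0.17, 0.23 and 0.25), and without normalization between arrays 5 subunits were higher and none lower.

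**Figure D2:**
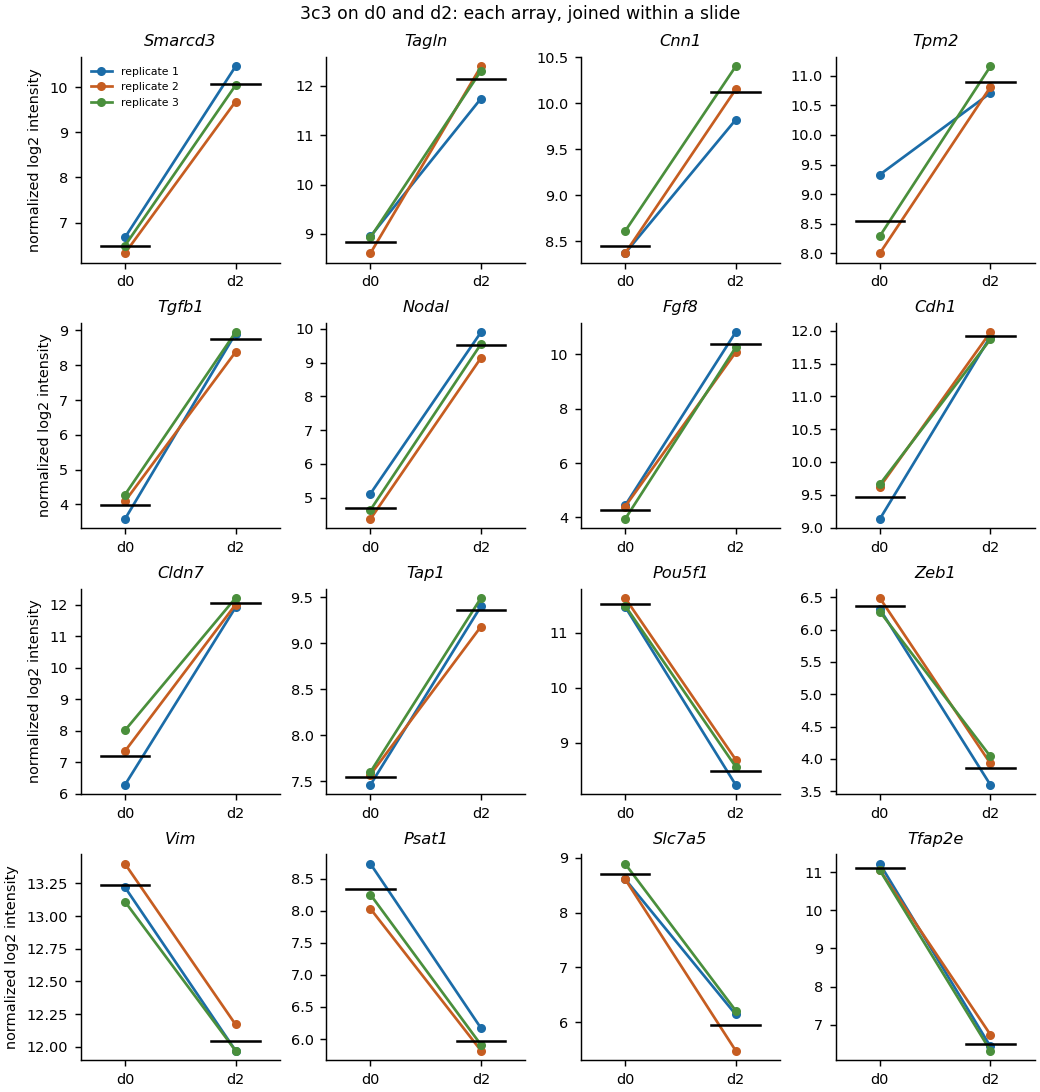
Normalized log2 intensity of 16 genes on the d0 and d2 arrays of 3c3, with 1 colour per replicate (slide), lines joining arrays of a slide and black bars at the means; the vertical axes differ and do not start at 0. In all 16 the d0 and d2 arrays do not overlap, for example 6.32 to 6.67 against 9.68 to 10.46 for *Smarcd3*.

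The bases before the start of 3 members are shown, because the SMAD element and the CArG box are the letters through which TGFβ1 and SRF are known to act. The first 2 are *Smarcd3* (chr4:11440950-11441199, plus strand) and *Nodal* (chr20:29911008-29911257, plus strand), with each CAGAC or GTCTG in capitals. In *Lgals2* (chr7:112290124-112290373, minus strand), the gene with the largest rise among those well above background on all 6 arrays, the capitals mark a CArG box. Sequences are from RefSeq, build GRCr8, 250 bases each, 5′ to 3′ in the direction of the gene.
Smarcd3: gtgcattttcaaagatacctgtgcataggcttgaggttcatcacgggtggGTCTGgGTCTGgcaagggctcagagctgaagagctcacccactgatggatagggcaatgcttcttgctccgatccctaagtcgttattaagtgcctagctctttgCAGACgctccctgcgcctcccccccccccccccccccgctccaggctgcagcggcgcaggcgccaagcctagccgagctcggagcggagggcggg
Nodal: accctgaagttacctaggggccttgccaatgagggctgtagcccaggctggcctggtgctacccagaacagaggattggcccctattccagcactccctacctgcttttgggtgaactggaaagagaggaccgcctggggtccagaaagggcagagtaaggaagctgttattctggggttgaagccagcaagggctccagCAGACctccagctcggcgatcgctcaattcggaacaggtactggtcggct
Lgals2: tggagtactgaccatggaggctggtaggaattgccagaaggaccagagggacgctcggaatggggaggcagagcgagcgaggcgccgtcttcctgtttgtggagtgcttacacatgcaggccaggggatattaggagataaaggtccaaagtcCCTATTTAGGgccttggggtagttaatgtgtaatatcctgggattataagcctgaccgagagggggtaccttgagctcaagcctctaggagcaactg
The elements of *Smarcd3* began 200, 194 and 95 bases before the start, that of *Nodal* 50 and the box of *Lgals2* 97 bases before it. By the paper's numbering, the SMAD elements of *Baf60c* that it deleted in luciferase assays lie further upstream than these 250 bases. The capitals in *Smarcd3* therefore mark other sites. Over windows of 250 bases before to 50 after the start, CAGAC or its complement GTCTG was in 50.1% of all 33469 RefSeq promoters, in 50.6% of those of 1741 genes called higher and in 46.3% of those of 1688 genes called lower. CArG boxes were in 1.64% of all, in 1.67% of the higher and in 0.889% of the lower genes. The E-box CACGTG was in 6.42% of all promoters, in 8.85% and 11.6% of those of higher and lower genes, and in 9.37% of those of genes not called. Of the 10912 genes tested, 8903 matched a promoter by symbol, both strands were searched, and a match in letters is a description, not a binding site.

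*Pou5f1* fell while early mesendoderm genes rose. *Pou5f1* stood at 11.47, 11.63 and 11.49 on d0 and at 8.23, 8.69 and 8.56 on d2. It fell by 3.04 (SE 0.20, adjusted p = 2e-05), 8.22-fold, and by a like amount on each slide (-3.24, -2.95 and -2.93). *Lin28a*, an RNA-binding protein of stem cells, fell by 1.70, *Tbx3* by 1.07 and *Tfcp2l1* by 2.32. *Otx2* and *Dnmt3b* rose by 2.98 and 1.45. Of 22 listed pluripotency genes 13 had a probe under the symbol and 9 were measured, so this list was covered only in part.

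Of 24 listed mesendoderm and Nodal pathway genes, 14 were measured. Of these, 10 rose and 2 fell (71.4% and 14.3%, against 19.7% and 18.8% of all genes), with a median of 2.61. *Tbxt*, *Mesp2*, *Wnt3* and *Msgn1* were well above background on none of the 6 arrays. *Mixl1* and *Tbx6* were so on 1 d2 array each and were not tested. *Lhx1* and *Cited4* were tested through their d2 arrays alone, which favours rises in this list. *Nodal* gave 5.12, 4.37 and 4.64 on d0 and 9.90, 9.14 and 9.55 on d2 (change 4.82, SE 0.23, adjusted p = 5.1e-06), a 28.3-fold rise with slide values of 4.79, 4.77 and 4.91. *Lefty2*, an inhibitor of Nodal, rose by 3.14 (SE 0.50, adjusted p = 0.002), and *Foxh1*, the DNA-binding partner of the SMADs in Nodal signaling, by 0.97. *Fgf8*, a growth factor of gastrulation, went from 4.44, 4.40 and 3.94 to 10.81, 10.07 and 10.25 (change 6.12, SE 0.37, adjusted p = 1.4e-05).

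The transcription factor *Lhx1* was well above background on no d0 array and on all d2 arrays, where it stood at 8.67, 7.53 and 8.06, and it rose at least 42.6-fold (adjusted p = 1.3e-05). *Eomes*, a mesendoderm factor, rose by 2.92 (SE 0.41) and *Sox4* by 2.41 (SE 0.25). *Cited4* stood at 2.94, 2.58 and 2.80 on d0, 1 of them well above background, and at 6.04, 7.59 and 8.08 on d2, a rise of at least 20.4-fold (adjusted p = 0.00028). *Gsc*, goosecoid, fell by 1.04 (adjusted p = 0.024, and 0.1 without replicate 3). *Foxc1*, a mesoderm factor, had 7.88, 7.52 and 7.47 on d0 and 5.10, 5.52 and 5.29 on d2 (change -2.32, SE 0.27, adjusted p = 0.0004). Its relative *Foxc2* overlapped between the days, at 6.31 to 6.74 against 6.26 to 6.54 (change -0.13, adjusted p = 0.63).

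Of 31 measured genes of primitive and visceral endoderm, 16 rose and 3 fell (51.6% and 9.68%, against 19.7% and 18.8% of all genes), with a median of 0.56. With 75th percentile scaling 14 rose and 7 fell. *Apoa1*, the main protein of high-density lipoprotein, was well above background on no d0 array and stood at 9.39, 8.82 and 9.26 on d2, a rise of at least 89.8-fold (adjusted p = 2.9e-05). *Rbp4*, the retinol carrier, and *Apob* rose at least 33.5-fold and 16-fold in the same way. *Apoa1*, *Rbp4* and *Apob* were tested through their d2 arrays alone, which favours rises in this list. *Ttr*, transthyretin, went from 4.78, 3.89 and 3.55 to 9.08, 7.87 and 8.54 (change 4.42, SE 0.51, adjusted p = 0.00039).

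*Cited1*, a transcriptional coregulator, rose from 11.54, 11.99 and 11.97 to 15.17, 14.89 and 15.07 (change 3.21). The endocytic receptor genes *Lrp2* (3.23), *Dab2* (2.16) and *Amn* (1.02) rose too, as did *Hnf4a* (1.98) and *Afp* (1.58). In the other direction, *Sox17* fell by 1.13, *Gata6* by 0.46 and *Thbd*, thrombomodulin, by 2.06. *Gata4* stayed at 13.46 to 13.55 on d0 and 13.40 to 13.52 on d2 (change -0.05, adjusted p = 0.75), and *Foxa2* changed by 0.20 (adjusted p = 0.18).

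Of 33 measured genes of epithelial junctions, 23 rose and none fell past the threshold (69.7% higher, against 19.7% of all genes), with a median of 0.90. Without replicate 3, 17 rose. *Cdh1*, E-cadherin, stood at 9.13, 9.62 and 9.66 on d0 and at 11.91, 11.98 and 11.87 on d2 (change 2.45, SE 0.21, adjusted p = 8.2e-05). *Cldn7*, a claudin of tight junctions, went from 6.29, 7.36 and 8.02 to 11.92, 12.01 and 12.22 (change 4.83, SE 0.32, adjusted p = 2.3e-05), and the d0 arrays were far more spread than the d2 arrays.

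*Cldn2* was well above background only on d2 and rose at least 13.6-fold. It was tested through its d2 arrays alone, which favours rises in the list of epithelial junctions. *Ocln* rose by 2.91, *Cldn4* by 2.72, and the desmosome genes *Pkp2* and *Dsp* by 1.90 and 1.62. The keratins *Krt19*, *Krt7* and *Krt8* rose by 2.42, 2.17 and 2.04, and the membrane proteases *Prss8* and *St14* by 2.30 and 2.12.

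In the list of mesenchymal switch genes, 2 of 12 measured rose and 3 fell (16.7% and 25.0%, against 19.7% and 18.8% of all genes). *Zeb2*, *Snai2* and *Prrx1* were well above background on none of the 6 arrays. *Zeb1*, a repressor of *Cdh1*, gave 6.32, 6.49 and 6.28 on d0 and 3.60, 3.93 and 4.04 on d2 (change -2.51, SE 0.22, adjusted p = 8.6e-05). *Vim*, vimentin, went from 13.22, 13.40 and 13.11 to 11.97, 12.17 and 11.97 (change -1.20, SE 0.14). *Cd44*, a hyaluronan receptor, was well above background on every d0 array and no d2 array and fell at least 4.79-fold. *Mmp14*, a membrane protease, and *Itga5* rose by 1.68 and 1.91. *Snai1* lay at 9.58 to 10.43 on d0 and 10.32 to 11.07 on d2 (adjusted p = 0.22).

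Of 24 measured collagen and matrix genes, 5 rose and 5 fell, each 20.8%, near the shares of all genes (19.7% and 18.8%). The counts were 8 and 1 in the unnormalized table, and 5 and 1 without replicate 1. *Spon2* (4.48), *Col18a1* (3.65) and *Col5a1* (2.54) rose most, and *Timp1*, an inhibitor of matrix proteases, fell by 1.55. *Col4a1* changed by -0.22 (adjusted p = 0.086) and *Fn1* by 0.56 (adjusted p = 0.1).

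Of 18 measured interferon response genes, 14 rose and none fell past the threshold (77.8% higher, against 19.7% of all genes), with a median of 1.30. *Rsad2*, an antiviral enzyme, rose from 4.43, 4.03 and 4.3 to 8.05, 7.73 and 8.90 (change 3.97, SE 0.28, adjusted p = 3.2e-05). *Oasl* was well above background on 1 d0 array and all d2 arrays and rose at least 4.59-fold (adjusted p = 0.0034), and *Isg15*, a ubiquitin-like modifier, rose by 1.6. The probe of *Oasl* was tested through d2 alone, which favours rises in this list. The peptide transporter of antigen presentation rose with both subunits, *Tap1* from 7.46, 7.57 and 7.60 to 9.40, 9.18 and 9.49 (change 1.81, SE 0.16) and *Tap2* by 2.21 (SE 0.19). The immunoproteasome genes *Psmb8* and *Psmb9* rose by 1.66 and 1.62 and *B2m* by 0.89. *Ifit1*, *Ifit2*, *Ifit3*, *Mx1* and *Mx2* were well above background on none of the 6 arrays.

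Of 23 measured genes of the response to amino acid shortage, 8 fell and none rose past the threshold (34.8% lower, against 18.8% of all genes), with a median of -0.69. The lower count was 3 without replicate 3 and 14, beside 1 higher, with 75th percentile scaling. *Psat1*, of serine synthesis, went from 8.73, 8.03 and 8.25 to 6.17, 5.82 and 5.91 (change -2.37, SE 0.32, adjusted p = 0.0008). The amino acid carriers *Slc7a5* and *Slc7a1* fell by 2.76 and 1.6, and *Asns*, asparagine synthetase, by 1.38. *Slc7a5* lost its call without replicate 3 (adjusted p = 0.065). Of 17 genes of oxidative stress and metallothioneins, 4 rose and 9 fell (23.5% and 52.9%, against 19.7% and 18.8% of all genes). The counts were 4 and 3 without replicate 3 and 4 and 4 in the unnormalized table. *Nqo1* and *Hmox1*, targets of the factor NRF2, fell by 2.11 and 1.69, and the metal-binding *Mt1* and *Mt2A* rose by 3.84 and 1.96.

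Among 24 cholesterol genes, 9 rose and 1 fell (37.5% and 4.17%, against 19.7% and 18.8% of all genes). Without replicate 3 the counts were 5 and 0. *Tm7sf2* and *Sc5d*, enzymes of late steps of the synthesis, rose by 1.83 and 1.37, with SEs of 0.23 and 0.15. Among 29 glycolysis and hypoxia genes 9 rose and 1 fell (31.0% and 3.45%, against 19.7% and 18.8% of all genes). Without replicate 3, 4 of them rose. *Adm*, adrenomedullin, a vasodilator peptide, rose from 7.47, 6.67 and 6.65 to 11.89, 12.25 and 12.59 (change 5.31, SE 0.25, adjusted p = 5.4e-06), while *Eno1* fell by 0.57. Of 13 fatty acid genes, 3 rose and 3 fell, each 23.1%, near the shares of all genes, but 0 and 1 without replicate 1 or without replicate 3. *Fasn*, fatty acid synthase, fell by 0.58 (adjusted p = 0.0067, and 0.12 without replicate 3), and the desaturases *Fads1* and *Fads2* rose by 1.36 and 1.23.

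Of 50 measured cell cycle genes, 2 rose and 5 fell (4.00% and 10.0%, against 19.7% and 18.8% of all genes), with a median of -0.23. The lower count ranged from 1 (without normalization between arrays, or without replicate 3) to 10 (75th percentile scaling). *Mki67*, the proliferation marker, lay at 7.61 to 8.41 on d0 and 7.30 to 8.03 on d2 (adjusted p = 0.13). *Rrm2*, which makes deoxynucleotides, fell by 1.44 (SE 0.27, adjusted p = 0.0043). Of 13 CDK inhibitors and D cyclins, 4 rose and 2 fell (30.8% and 15.4%, against 19.7% and 18.8% of all genes). *Cdkn1a* (p21) rose by 1.38 (SE 0.13, adjusted p = 0.00013) beside *Cdkn2b*, and *Cdkn1c* (p57) fell by 1.49. Of 17 immediate early genes 6 rose and none fell past the threshold (35.3% higher, against 19.7% of all genes), with *Btg2* (1.54) and *Dusp1* (1.34) at the top. The higher count was 2 without replicate 1 or without replicate 3 and 11 in the unnormalized table. *Hspb1*, a small heat shock protein of muscle and other cells, rose by 4.02 (SE 0.17, adjusted p = 3.8e-06), with slide values of 4.00, 3.94 and 4.12. It was 1 of 2 heat shock genes of 14 that rose, and 2 fell (14.3% each, below the shares of all genes). Of 14 FGF pathway genes 2 rose and 3 fell (14.3% and 21.4%, against 19.7% and 18.8% of all genes). The receptor *Fgfr4* rose by 1.35 and *Fgfr2* changed by -2.03. Of 11 Wnt and Notch genes 1 rose and 3 fell (9.09% and 27.3%, against 19.7% and 18.8% of all genes). The riser was the ligand *Jag2* (at least 4.6-fold, above background on 1 d0 array).

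Some markers of other lineages moved as well. *Myl7*, the atrial myosin light chain, was well above background on 1 d0 array (1.28, 2.61 and 1.71) and on all d2 arrays (11.07, 10.84 and 10.79), and it rose at least 286-fold (adjusted p = 3.4e-06). *Nppa*, atrial natriuretic peptide, rose at least 5.29-fold and *Acta1*, skeletal actin, by 1.77, while *Myh6*, a cardiac myosin, fell by 2.83. Of 23 listed skeletal and cardiac genes 11 were measured. Of these, 6 rose and 1 fell (54.5% and 9.09%, against 19.7% and 18.8% of all genes). The mean level of these 11 was 6.63 to 6.84 over the d0 arrays and 7.94 to 8.14 over the d2 arrays. *Myl7* and *Nppa* were tested through their d2 arrays alone, which favours rises in this list and a rise of this mean. The defining factors *Myod1* and *Nkx2-5* were well above background on no d0 or d2 array, nor were *Myf5*, *Myf6*, *Isl1*, *Ckm*, *Myh1* and *Myh7*. Of 8 measured endothelial genes, 2 rose and 3 fell (25.0% and 37.5%, against 19.7% and 18.8% of all genes). The counts were 2 and 1 without replicate 1, 2 and 0 without replicate 2, and 1 and 2 without replicate 3. *Flt1*, a VEGF receptor, rose by 2.68, another probe of it giving 0.49, and *Pecam1*, an adhesion protein, fell by 2.57. The mean level of these 8 was 4.63 to 4.94 on d0 and 4.45 to 4.87 on d2. Of 12 listed ciliated cell markers 5 were measured and 3 rose (60.0%, against 19.7% of all genes), among them the factor *Foxj1* (2.77). The higher count was 2 without replicate 1 or without replicate 3, and 1 with normexp background correction. The mean level of these 5 was 4.50 to 4.60 on d0 and 5.70 to 6.01 on d2. Of 5 blood cell markers 1 rose, *Csf1r*, a receptor of macrophages (3.03), and 1 fell, the erythroid factor *Gata1* (-0.95). Of 4 measured neural markers 1 fell (25.0%, against 18.8% of all genes), the neuronal tubulin *Tubb3* (-2.87). Of 7 measured stromal markers *Eng* rose by 0.61 and *Pparg* fell by 0.96, 14.3% each, below the shares of all genes. The part of any such cells in the lists above was not tested.

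**Figure D3:**
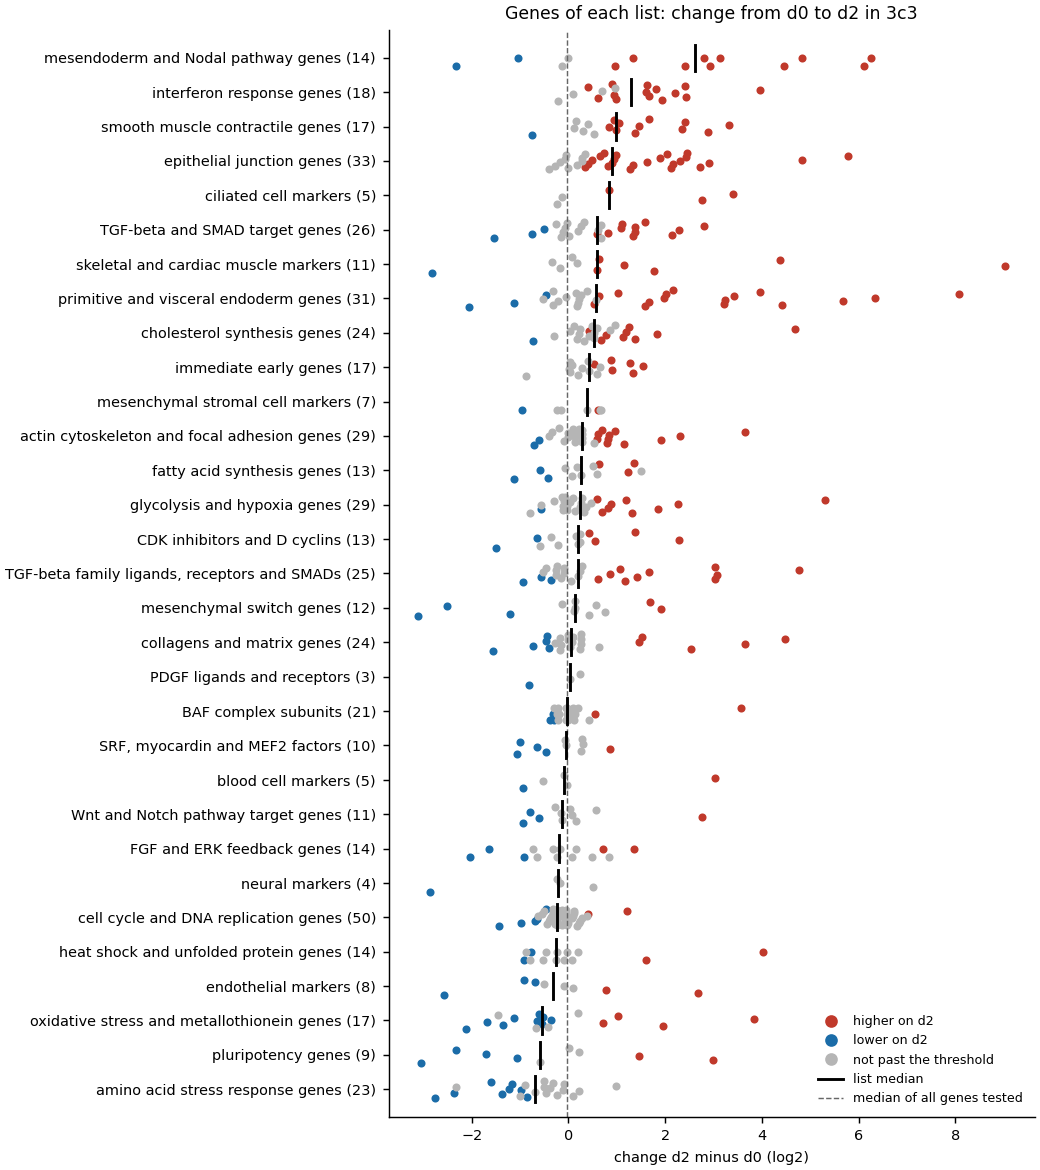
Change from d0 to d2 (log2, horizontal axis) of every measured gene of the 31 lists in 3c3, 1 point per gene, with the number measured in parentheses. Red and blue points passed the threshold, black bars are list medians and the dashed line is the median of all 10912 genes (-0.035); the mesendoderm list has the highest median (2.61) and the amino acid list the lowest (-0.69).

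Among genes well above background on all 6 arrays, the largest rise was that of *Lgals2*, galectin-2, a sugar-binding protein. Its arrays gave 3.28, 4.01 and 3.63 on d0 and 12.39, 11.99 and 12.08 on d2 (change 8.52, SE 0.42, adjusted p = 5.6e-06). A second, dimmer probe of it gave 4.53. Next came the serine protease *Tmprss2* (6.18), *Fgf8*, the anticoagulant protease *Proc* (5.34), the chloride channel protein *Clic6* (5.33), *Adm*, the bile acid-CoA ligase *Slc27a5* (5.12), the laminin chain *Lama5* (4.99), *Cldn7* and *Nodal*. Probes seen only on d2 included *Pappa*, a protease that frees insulin-like growth factors, which rose at least 207.0-fold, and the microvillus protein *Vil1*, at least 58.5-fold.

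The largest falls were those of *Ifitm1* and *Stmn2*. *Ifitm1*, an interferon-induced membrane protein, went from 13.33, 13.23 and 12.93 to 8.14, 8.0 and 8.17 (change -5.06, SE 0.29, adjusted p = 1.2e-05), against the direction of the interferon genes above. *Stmn2*, a microtubule protein, fell by 5.05 (SE 0.37). *Tfap2e*, an AP-2 transcription factor, stood at 11.22, 11.06 and 11.05 on d0 and 6.43, 6.74 and 6.32 on d2 (change -4.61, SE 0.19, adjusted p = 3.8e-06). The other 7 of the 10 were *Serpinb5* (-4.84), *Bpifb6* (-4.34), *Cd7* (-4.32), *Klk6* (-4.28), *Gpat2* (-4.16), the protein kinase A subunit *Prkar2b* (-4.14) and proline dehydrogenase *Prodh* (-4.12). Probes seen only on d0 were led by *Tmem35a*, which fell at least 11.6-fold, followed by *Cgm4* (at least 10.9-fold), the receptor *Pth2r* (at least 8.75-fold), *Serpinb9* (at least 6.17-fold) and *Sp8* (at least 5.97-fold).

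For some genes d2 was a step on the way, for others the highest or lowest of the 4 days. These comparisons share the d0 and d2 arrays, and levels of d4 and d6 are given as means ± SD of 3 arrays with no test. *Smarcd3* went from 6.49 ± 0.18 on d0 to 10.06 ± 0.39 on d2, 11.60 ± 0.21 on d4 and 11.76 ± 0.56 on d6. *Tagln* was at 8.83 ± 0.19 on d0, 12.14 ± 0.35 on d2 and 14.78 ± 0.40 on d6. On the log2 scale *Smarcd3* and *Tagln* had made the larger part of their rise by d2. In intensity the larger part came after d2. *Lefty2* was at 4.16 ± 0.08 on d0, 7.30 ± 0.53 on d2 and 12.08 ± 1.11 on d6, with the larger part after d2.

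*Cited1* was highest on d2 at 15.04 ± 0.14 and back to 11.28 ± 0.23 on d6. *Dab2*, *Cgn*, *Hnf4a*, *Lrp2* and *Cldn2* likewise had their highest mean on d2. *Pou5f1* was at 8.49 ± 0.24 on d2 and lower on d4 (7.16 ± 0.09), with 7.42 ± 0.58 on d6. *Spry2*, an inhibitor of FGF signaling, was lowest on d2 (9.40 ± 0.26), against 11.04 ± 0.33 on d0 and 10.68 ± 0.50 on d4.

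**Figure D4:**
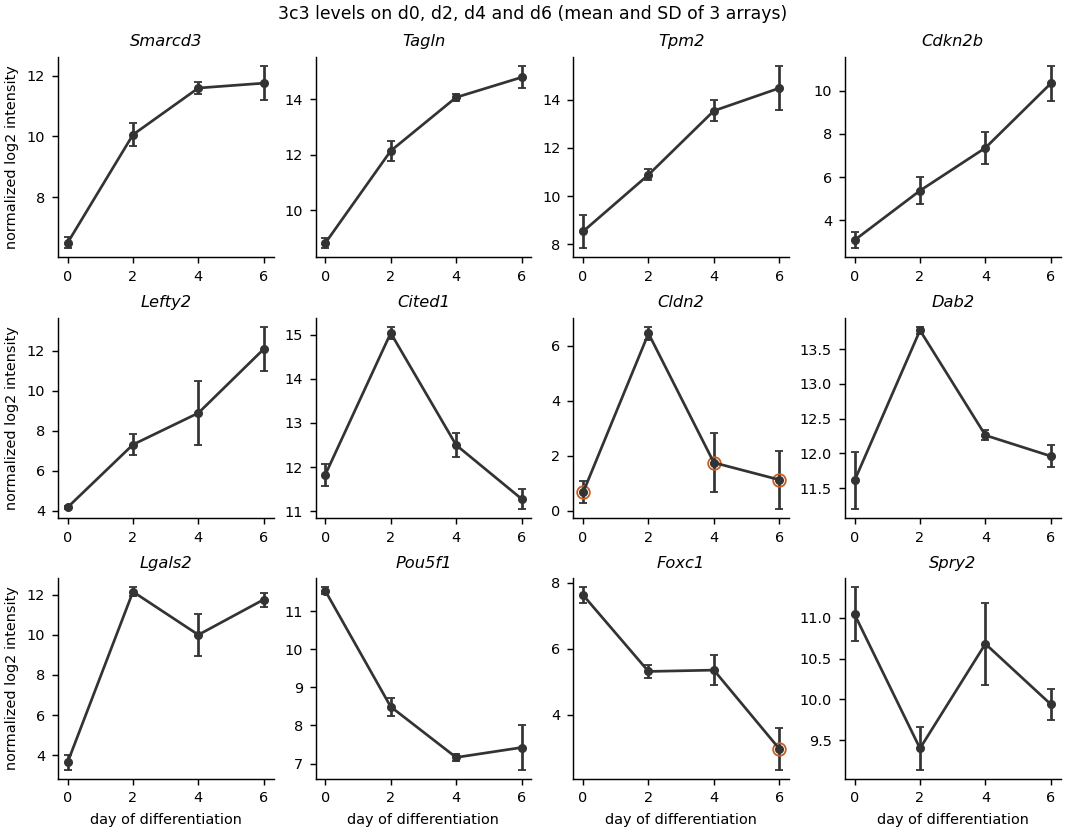
Levels of 12 genes in 3c3 (normalized log2 intensity, vertical axes, which differ and do not start at 0) by day of differentiation, as means with SD bars of 3 arrays; rings mark days on which fewer than 3 arrays were well above background. *Smarcd3*, *Tagln*, *Tpm2*, *Cdkn2b* and *Lefty2* have their highest mean on d6 and *Cited1*, *Cldn2*, *Dab2* and *Lgals2* on d2.

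Line Cl19, measured on other arrays, was compared over the same step. Of 1612 probes higher at least 2-fold in 3c3, 1278 were called higher in Cl19 and 9 lower, against 15.5% and 20.6% of all probes tested in 3c3. Of 943 lower ones, 773 were called lower and 8 higher. The array labelled Cl19 d2 replicate 1 stands apart from its group: its root mean square distance to the 3c3 d2 arrays was 0.314, 0.363 and 0.503, and to the other Cl19 d2 arrays 0.824 and 0.779. Without it, 1182 of the 1612 were called higher in Cl19 and 746 of the 943 lower, against 15.0% and 20.6% of all probes. The difference between the steps was therefore tested with and without it. It passed for 167 of 22288 probes (0.749%) with all arrays and for 1189 (5.33%) without that array. Among the 1612 higher and 943 lower probes it passed for 60 and 23 (3.72% and 2.44%) with all arrays and for 292 and 145 (18.1% and 15.4%) without it.

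*Psmb8* and *Psmb9*, chosen after their values were seen, rose by 1.66 and 1.62 in 3c3 and fell by 0.99 and 1.21 in Cl19, where their d0 means were 8.08 and 9.94. The difference of *Psmb8* was 2.65 (adjusted p = 0.01) and, without the array, 3.03 (adjusted p = 0.00053), and that of *Psmb9* was 2.83 (adjusted p = 0.021) and 3.27 (adjusted p = 0.0014). *Lgals2* rose by 8.52 in 3c3 and 4.53 in Cl19, where its d0 mean was 7.20 (difference 3.99, adjusted p = 0.026). The SMAD target *Id3* fell in 3c3 (-0.51) and rose in Cl19 (0.97), a difference of -1.48 (adjusted p = 0.042). *Pmepa1*, a SMAD-induced inhibitor of the pathway, again chosen after its values were seen, rose by 3.70 in Cl19 and changed by 0.67 in 3c3 (adjusted p = 0.11), a difference of -3.03 (adjusted p = 0.0071).

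*Smarcd3* rose by 5.78 in Cl19 and by 3.57 in 3c3. The difference of -2.22 did not pass with all arrays (adjusted p = 0.17) and was -3.14 without the array (adjusted p = 0.00025). Without that array, *Pou5f1* fell by 5.88 in Cl19 (difference 2.84, adjusted p = 0.0013) and *Tagln* rose by 4.73 (difference -1.42, adjusted p = 0.021), but with all arrays neither difference passed (adjusted p = 0.82 and 0.63). *Gsc* fell by 1.04 in 3c3 and rose by 3.96 in Cl19, a difference of -5.0 (adjusted p = 0.13) and, without the array, -7.00 (adjusted p = 6.5e-05). *Nodal* rose by 4.69 in Cl19, and its difference between the lines was 0.13 (adjusted p = 0.99).

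**Figure D5:**
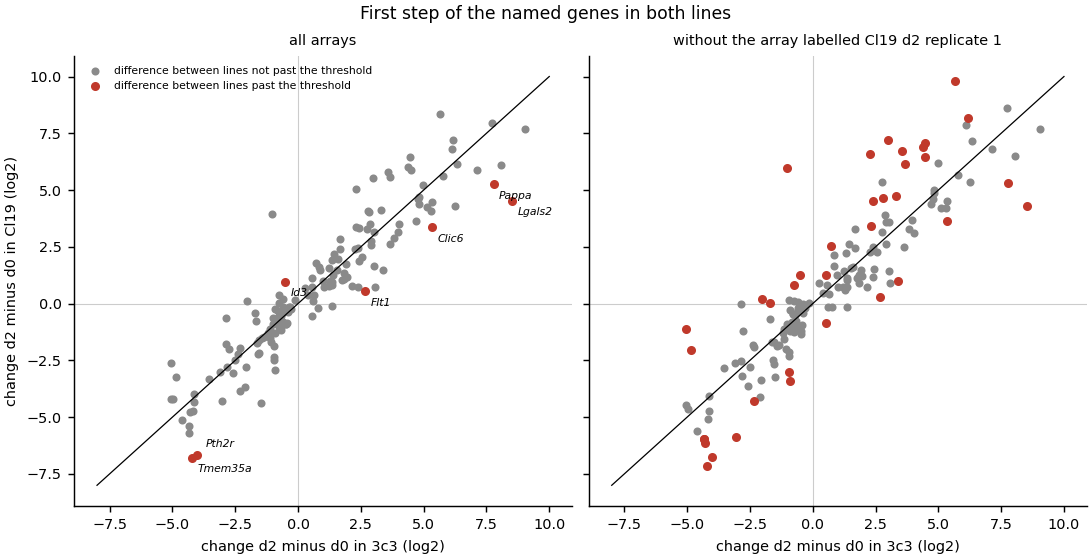
Change from d0 to d2 (log2) in 3c3 (horizontal axis) and Cl19 (vertical axis) for the genes named by rule, 1 point per gene, with all arrays (left) and without the array labelled Cl19 d2 replicate 1 (right). The diagonal marks equal change, and red points are genes whose difference between the lines passed the threshold, such as *Lgals2* at 8.52 and 4.53.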

How the data were processed

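RNA of 3c3 on d0, d2, d4 and d6, of Cl19 on the same days and of primary SMCs was measured on 26 Agilent Whole Rat Genome arrays, 1 sample per array, labeled with Cy3. The authors deposited the intensity of each feature from Agilent Feature Extraction 10.1.1.1, which had subtracted background and trends over the array and set substitute values for dim features. They also deposited a table of log2 values, each equal to the log2 of that intensity to within 5.2e-14, so without normalization between arrays.

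Samples were grouped by the line and day in their labels. The study's methods name triplicates and its supplement biological replicates, and nothing says that they came from separate cultures, so the p-values measure the spread between these samples. From the intensities, 43379 gene features were brought to 1 common distribution per array (quantile normalization across the 26 arrays, on log2 values), which removes a change shared by most genes. Outlier features were then left out and features of a probe averaged, which gave 41012 probes. Tested were the 20982 probes well above background on all 3 arrays of d0 or of d2, of which 19131 were so on all 6 arrays. The test was limma 3.58.1 in R 4.3.3, fitted on the 12 arrays of 3c3 with the slide as a block, two-sided, with Benjamini-Hochberg adjustment over all probes tested and a threshold of 0.05. Deviations from the group means had a correlation across probes of 0.52 to 0.83 between d0 and d2 of 1 slide and of -0.67 to 0.26 between slides, and 18 of 18 pairs of arrays on 1 slide exceeded 0.1, so the replicate numbers pair the arrays. The fit was tested on simulated data.

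Where none of a day's arrays, or 1 of them, held a probe well above background, its change is a bound: the mean of the other day against the dim day's mean, in which each array's value is raised to the lowest one that was well above background there. Of 41012 probes, 22570 had 1 gene symbol, 10 several and 18432 none, through the accessions, gene numbers and names in the files and a RefSeq gene table. For a gene with several probes, the brightest in 3c3 was used, 1 for each of 10912 genes. The 31 lists hold 713 genes, of which 527 were tested, 157 had no probe above background on all arrays of a day and 29 no probe under the symbol.

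The genes named were those that the paper names, the 10 largest rises and 10 largest falls among called genes above background on all 6 arrays that moved one way on all slides, the 5 largest bounds each way, and up to 3 called members of each list in each direction, beside defining members. The comparison, the lists and this rule were chosen with earlier results of these data known. Alternatives were other scalings, background corrections, filters and designs, and leaving out each replicate. Probe coordinates are on rn4. Some genes are not reported here. Python 3.11.15 drew the figures.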

Additional observations from a re-analysis of the deposited data

Results flagged for a closer look

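These differ between the lines by the test of the difference itself (limma, 22288 probes), the step from d0 to d2 in 3c3 minus that in Cl19, on the log2 scale. The 3c3 step was more positive for *Lgals2* by 3.99 (adjusted p = 0.026, and 4.21 without the array labelled Cl19 d2 replicate 1), *Psmb9* by 2.83 (adjusted p = 0.021, and 3.27), *Psmb8* by 2.65 (adjusted p = 0.01, and 3.03), *Pappa* by 2.52 (adjusted p = 0.015, and 2.49), *Flt1* by 2.15 (adjusted p = 0.02, and 2.40), *Clic6* by 1.96 (adjusted p = 0.019, and 1.70) and *Plod1*, a collagen lysyl hydroxylase, by 0.73 (adjusted p = 0.043, and 0.78). It was also more positive for *Pth2r* by 2.63 (adjusted p = 0.021, and 2.75) and *Tmem35a* by 2.58 (adjusted p = 0.0075, and 2.94), which fell further in Cl19. Both were not well above background on the 3c3 d2 arrays, nor *Pappa* on the d0 arrays, so these 3 differences rest on fitted values of dim probes. The step was more negative for *Pmepa1* at -3.03 (adjusted p = 0.0071, and -3.34) and *Id3* at -1.48 (adjusted p = 0.042, and -1.75). Of the other *Flt1* probe the change in 3c3 was 0.49.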

How the results depend on the processing

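The rule on names, without defining members, gave 160 genes with a test. Of these 158 were called, as most parts of the rule take called genes only, 97 of them in every alternative that tested them, and none reversed its direction. The replicate numbers pair the arrays by slide, and with no replicate block 4441 probes passed instead of 7356, all of them called the same way with the block, and 4735 over all 26 arrays without it. Leaving out each replicate gave 3381 to 5258 probes and 149 to 213 genes of the lists, against 246. Named genes called fell from 158 to 126, 139 and 113 without replicates 1, 2 and 3. With normexp background correction and an offset of 50, 993 probes instead of 2555 changed at least 2-fold, and the cause was not tested. The methods' t-test passed 8192 probes at the unadjusted threshold and 5231 after adjustment.

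The count of probes whose step differed from Cl19 was 167, and 100 without a filter on dim probes, 87 with no replicate block, 1189 without the array labelled Cl19 d2 replicate 1 and 7 to 1245 on leaving out each replicate of either line, the highest without Cl19 replicate 1 and the lowest without Cl19 replicate 3. Other alternatives moved no total of probes or genes called by over 1.5 times. With the 6 arrays alone, lower probes went from 3942 to 6125 and lower list genes from 77 to 130. With 75th percentile scaling the lower genes went from 3 to 7 in the endoderm list and from 2 to 6 in the heat shock list. Changes of probes near background are the least precise.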
